A study of Mus musculus with 14 samples.

Results

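Cadherins and protocadherins were taken as the rows of the gene count table whose symbol is Cdh followed by digits or begins with Pcdh, which gave 94 of 24062 genes. Of the 94, 23 were cadherins and 71 were protocadherins, and 59 of the protocadherins belonged to the alpha, beta and gamma gene clusters with 15, 22 and 22 members. Bulk RNA-seq was performed on 14 libraries from mice aged 9 months on a mixed C57BL/6, I-129 and FVBN background and given no drug. The 3 control libraries were dorsal root ganglia (DRGs) with their nerves from *Nf1* fl/fl mice, which carry floxed *Nf1* alleles without a Cre. The 11 plexiform neurofibromas (PNs) came from Dhh-Cre;*Nf1* fl/fl mice, in which Dhh-Cre removes *Nf1* in the Schwann cell (SC) lineage while the other cells of the tumor keep the gene. By MRI at 7 and 9 months, 5 PNs were slow-growing, with a volume change under 5 mm3, and 6 were fast-growing, with a change over 35 mm3. Controls shared the floxed alleles with the tumors and differed from them by Cre, by tissue and by the presence of a tumor.

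Classical cadherins are calcium-dependent adhesion proteins that bind a cadherin on the neighboring cell, while their cytoplasmic tails hold catenins that link the contact to actin. In peripheral nerve, *Cdh19* and *Cdh2* are known from the SC lineage and *Cdh1* from the junctions that myelinating SCs make with themselves. Clustered protocadherins lie in a tandem array of variable exons, each with its own promoter. Alpha and gamma transcripts splice 1 variable exon to constant exons that the whole cluster shares, whereas a beta gene is complete in itself, and neurons use combinations of these proteins as a cell surface code.

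Upstream sequence is shown for *Cdh20*, *Cdh10* and *Pcdh20*, the 3 members with the largest called increases in PNs among those whose upstream window in RefSeq held no annotated exon (GRCm38.p6, 250 bases before the start, 5′ to 3′ on the strand of the gene). The windows were chr1:104768270-104768519 on the plus strand for *Cdh20*, chr15:18820079-18820328 on the plus strand for *Cdh10*, and chr14:88471397-88471646 on the minus strand for *Pcdh20*. The *Cdh10* window lay inside the span that GENCODE gives this gene, between its outermost exons. Capitals mark CANNTG, the general E-box core, in which N stands for any base. Binding of the Snail, Zeb or Twist repressors of cadherin genes to these stretches was not tested.
Cdh20: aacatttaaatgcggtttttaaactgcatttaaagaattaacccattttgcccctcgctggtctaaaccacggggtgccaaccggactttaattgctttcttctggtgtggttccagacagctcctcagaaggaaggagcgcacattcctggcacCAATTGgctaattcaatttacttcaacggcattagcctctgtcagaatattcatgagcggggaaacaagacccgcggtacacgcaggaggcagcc
Cdh10: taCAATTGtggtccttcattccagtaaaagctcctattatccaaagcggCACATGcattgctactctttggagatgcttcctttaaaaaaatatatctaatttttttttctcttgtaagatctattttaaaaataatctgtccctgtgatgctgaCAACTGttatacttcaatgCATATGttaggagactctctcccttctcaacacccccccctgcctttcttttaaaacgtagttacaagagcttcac
Pcdh20: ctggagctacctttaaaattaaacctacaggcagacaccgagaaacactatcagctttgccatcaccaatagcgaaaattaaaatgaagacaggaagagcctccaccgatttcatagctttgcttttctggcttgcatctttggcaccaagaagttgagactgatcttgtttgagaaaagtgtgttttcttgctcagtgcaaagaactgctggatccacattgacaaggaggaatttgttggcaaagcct
CANNTG was found 1 time for *Cdh20*, 4 times for *Cdh10* and 0 times for *Pcdh20*, and 66.2% of 32851 windows of the same length held it. On either strand, the 3 windows held none of the SOX-type letters ACAAAG and ACAATG, found in 16.5% and 10.7% of all windows, nor TATAAA, found in 12.4%.

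Libraries held between 9596773 and 17594164 counts, so that 3 counts equaled between 0.171 and 0.313 CPM of the unadjusted library total, and the CPM values given for genes are scaled by TMM factors as well. *Nf1* itself was at 227, 152 and 129 CPM in controls, at 258, 249, 225, 294 and 254 in slow-growing PNs, and at 225 to 276 in fast-growing PNs (log2 fold change PN versus control 0.54, standard error 0.16, adjusted p = 0.0215). A gene-level count does not show the deleted exons, and cells outside the SC lineage keep them. SC and neuron markers were present in both tissues: SC markers summed to 4721 to 14208 CPM in controls and 7848 to 22656 in PNs, and sensory neuron markers to 1814 to 6560 and 51.9 to 14670 CPM, with overlapping sums. Of 12 SC markers, 4 were called higher in PNs, against 12.9% of all genes, and all 12 had log2 fold changes above 0 with a median of 0.72. Summed skeletal muscle markers were at 4024 to 16122 CPM in controls and 33.1 to 3904 in PNs, and fat markers at 4701 to 6875 and 32.0 to 3929, with no overlap for either list. Control 3 stood apart from controls 4 and 5, with SC markers at 14208 against 5209 and 4721 CPM and the least muscle, and fast-growing PN 1191 held neuron markers at only 51.9 CPM. In bulk tissue, fewer cells of a type and less RNA per cell cannot be told apart.

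The first question was how cadherin expression in PNs differed from that of control DRGs with nerves. Among the 87 members with enough counts to test, 41 were higher and 3 lower in PNs, at a Benjamini-Hochberg adjusted p under 0.05 over all genes by edgeR's quasi-likelihood test, referred to here as called. The 7 members with too few counts were *Cdh17*, *Cdh22*, *Cdh26*, *Pcdha1*, *Pcdha4*, *Pcdha4-g* and *Pcdhb1*. Over all 16283 genes tested, 12.9% were called higher and 13.4% lower, 26.3% in all. The log2 fold change of the members had a median of 0.92 and was above 0 for 75 of 87, whereas the median of all genes was 0.10. The calls fell mostly in the beta cluster, with 19 of 21 tested members higher, and in the gamma cluster, with 15 of 22, and outside the clusters they included the type II cadherins *Cdh19*, *Cdh20* and *Cdh10*. In 19 members every PN lay above every control and in 2 every PN lay below, against 8.51% and 9.13% of all genes. An unadjusted p under 0.05 was found for 54 members and 38.9% of all genes. Without control 4, 15 of 89 members were called against 14.9% of all genes, and without control 5, 13 of 88 against 12.5%, shares near the background, whereas without control 3 it was 41 of 89 against 25.7%. With the muscle and fat marker scores as covariates, whose control and PN ranges did not overlap, edgeR called 0 members and 3.67% of all genes, and 12 of 87 members had an unadjusted p under 0.05 against 20.1% of all genes. Tissue makeup and group cannot be told apart in that fit. Of the members named here, *Cdh19*, *Cdh20*, *Cdh10*, *Cdh23*, *Pcdh1*, *Pcdhb2*, *Pcdhb3*, *Pcdhb8*, *Pcdhb11*, *Pcdhga7* and *Pcdhga11* were called in PNs whichever single library was left out, and each other member called in PNs lost the call without at least 1 control.

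**Figure D1:**
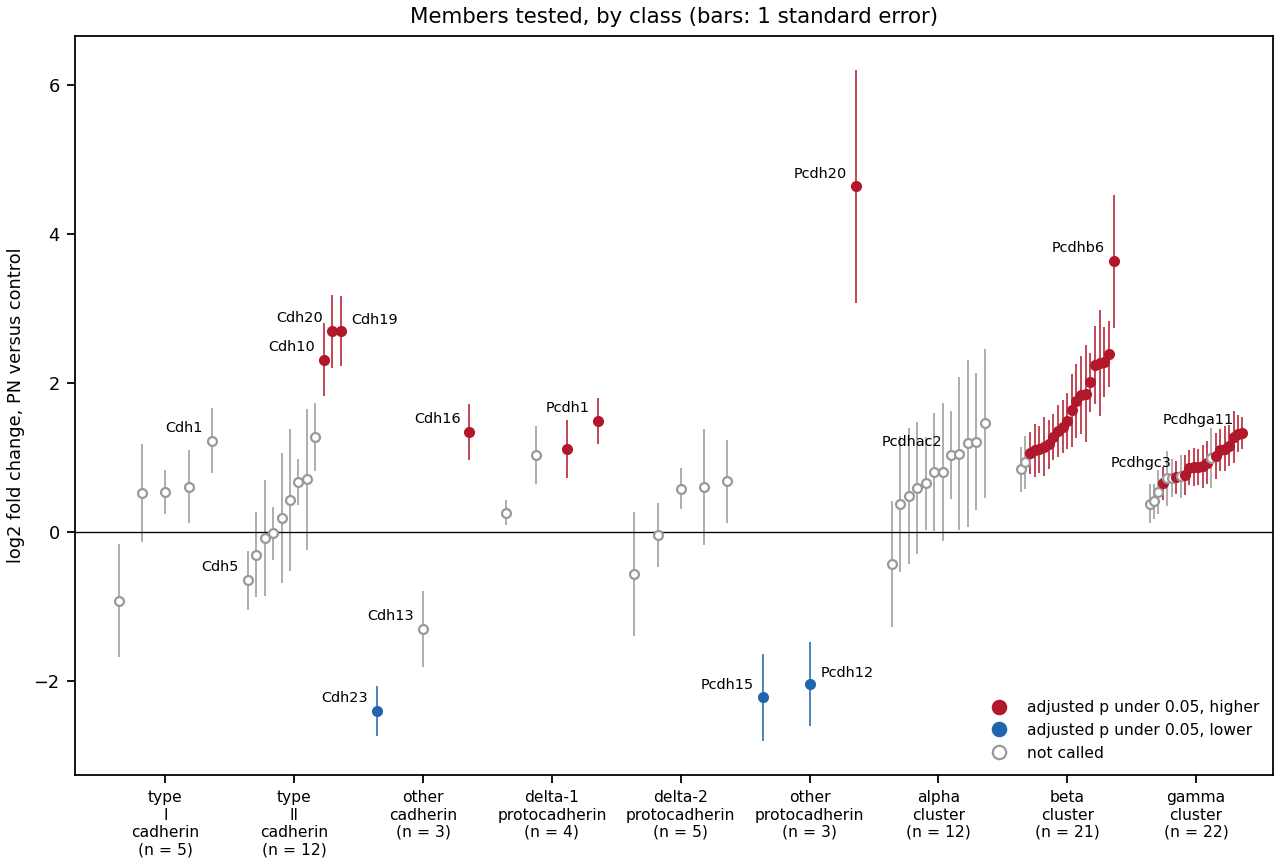
Log2 fold change of each tested member in PNs against control DRGs with nerves, by class, with bars of 1 standard error and filled points for members called by edgeR at an adjusted p under 0.05. All 21 beta and all 22 gamma members lie above 0, and the 3 members called lower are *Cdh23*, *Pcdh15* and *Pcdh12*.

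Of 12 tested type II cadherins, 3 were higher in PNs and none was lower, a share near the 26.3% of all genes called. *Cdh19* (chr1:110888326-110977584, minus strand), a cadherin of the SC lineage, was at 88.2, 44.8 and 40.5 CPM in controls, at 311, 496, 162, 127 and 285 in slow-growing PNs, and at 402 to 551 with a median of 462 in fast-growing PNs. Every PN lay above every control, and the lowest fast-growing PN was above 4 of 5 slow-growing PNs. The increase was 6.49-fold (log2 fold change 2.70, standard error 0.47, adjusted p = 0.00089), and it was called in slow-growing PNs (2.21, standard error 0.51, adjusted p = 0.0289) and in fast-growing PNs (2.95, standard error 0.28, adjusted p = 8.2e-05). The difference of 0.75 between fast-growing and slow-growing PNs was not called (standard error 0.31, adjusted p = 0.193). Per kb of exonic sequence, *Cdh19* had the highest mean level of all members over the 14 libraries, 72.6 CPM per kb, followed by *Cdh1* at 39.9. SC marker sums overlapped between controls and PNs although 4 of 12 SC markers were called higher, and control 3, with the most SC markers among controls, also held the most *Cdh19* among them; the part of SC content in the increase was not tested.

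*Cdh20* (chr1:104768529-104995481, plus strand) is a type II cadherin gene on the same chromosome as *Cdh19*. Its level was 2.66, 2.02 and 0.834 CPM in controls, 7.14, 13.7, 6.94, 4.49 and 7.42 in slow-growing PNs, and 13 to 17.7 with a median of 15.8 in fast-growing PNs. No PN overlapped the controls, and only slow-growing PN 1198A reached the range of the fast-growing PNs. *Cdh20* rose 6.46-fold in PNs (log2 fold change 2.69, standard error 0.49, adjusted p = 0.00124), and its log2 fold change was 2.05 in slow-growing (adjusted p = 0.0322) and 3.01 in fast-growing PNs (adjusted p = 0.000144). The direct comparison of the growth groups gave 0.97 (standard error 0.24, adjusted p = 0.0609).

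*Cdh10* (chr15:18818947-19014236, plus strand), best known as a neuronal cadherin, was at 5.49, 2.84 and 1.56 CPM in controls, at 7.44, 15.6, 9.50, 22 and 6.75 in slow-growing PNs, and at 13.8 to 25.2 with a median of 21 in fast-growing PNs. All PNs were above all controls. The increase was called for PNs together (log2 fold change 2.31, standard error 0.49, adjusted p = 0.00336) and for fast-growing PNs (2.55, standard error 0.36, adjusted p = 0.000758), and not for slow-growing PNs (1.82, standard error 0.54, adjusted p = 0.0627). Fast-growing PN 1191, with neuron markers at 51.9 CPM, held 13.8 CPM of *Cdh10*, the lowest of the fast-growing PNs. It was still above every control, where neuron markers summed to 1814 to 6560 CPM. It was also above slow-growing PNs 1079, 1202 and 1206, with neuron markers at 6510, 8808 and 3707 CPM, and below 1198A and 1203. *Cdh8* and *Cdh18* had a count of 0 in fast-growing PN 1191. The part of neuron content in the *Cdh10* levels was not tested.

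*Cdh11* (chr8:102632095-102785642, minus strand), a mesenchymal cadherin of fibroblasts and bone-forming cells, was at 74.9, 35 and 35.2 CPM in controls, at 80.8, 50.8, 113, 265 and 54.1 in slow-growing PNs, and at 87.8 to 170 with a median of 120 in fast-growing PNs. The fast-growing PNs lay above every control, while slow-growing PNs overlapped control 3. It was called in fast-growing PNs (log2 fold change 1.28, standard error 0.30, adjusted p = 0.0104) and not over all PNs (1.27, adjusted p = 0.0534), and without control 4 or 5 the adjusted p in fast-growing PNs was 0.051 and 0.055. Fibroblast markers summed to 1972 to 3801 CPM in controls and 5491 to 10363 in fast-growing PNs. In slow-growing PNs they summed to 3922, 5588, 3626, 1267 and 4109 CPM, in the order of the *Cdh11* values above. Slow-growing PN 1203, with the most *Cdh11*, thus held the fewest fibroblast markers, and 1198A, with the least *Cdh11* among PNs, the most of its group. Their part in the *Cdh11* difference was not tested. *Cdh5*, the cadherin of endothelial junctions, was at 124, 111 and 115 CPM in controls and 22 to 129 in PNs, and it was not called (log2 fold change -0.65, standard error 0.40, adjusted p = 0.243). The other type II members tested, *Cdh6*, *Cdh7*, *Cdh8*, *Cdh9*, *Cdh12*, *Cdh18* and *Cdh24*, had log2 fold changes from -0.31 (*Cdh7*) to 0.70 (*Cdh8*) in PNs and were called in none of the 4 comparisons.

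None of the 5 type I cadherins was called over all PNs by edgeR, and 1 had an unadjusted p under 0.05. *Cdh1* (chr8:106603351-106670246, plus strand), which encodes E-cadherin, was at 145, 63.1 and 56.7 CPM in controls, at 295, 213, 229, 349 and 264 in slow-growing PNs, and at 88.4 to 259 with a median of 132 in fast-growing PNs. Every slow-growing PN exceeded every control, whereas 4 of 6 fast-growing PNs lay below control 3. It was called higher in slow-growing PNs, 2.95-fold (log2 fold change 1.56, standard error 0.34, adjusted p = 0.0243), but the call was lost without control 4 (adjusted p = 0.112) or control 5 (0.107). It was not called in fast-growing PNs (0.76, standard error 0.41, adjusted p = 0.189), nor between the growth groups (-0.79, standard error 0.28, adjusted p = 0.142). *Cdh2*, which encodes N-cadherin, was at 60.7, 34.5 and 31.7 CPM in controls, 45.5 to 90.6 in slow-growing and 33.9 to 71.0 in fast-growing PNs, with overlapping groups (log2 fold change in PNs 0.53, adjusted p = 0.20). *Cdh3*, *Cdh4* and *Cdh15* were likewise called in none of the 4 comparisons, with 0.52, 0.60 and -0.93 in PNs.

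Of the 3 tested cadherins outside these classes, *Cdh16* was higher and *Cdh23* lower in PNs. *Cdh23* (chr10:60302748-60696490, minus strand), whose protein forms the tip links of inner ear hair bundles together with that of *Pcdh15*, was at 5.06, 6.05 and 7.82 CPM in controls, at 1.29, 0.676, 1.43, 0.824 and 2.22 in slow-growing PNs, and at 0.605 to 1.83 with a median of 1.16 in fast-growing PNs. All 11 PNs lay below all controls. It fell 5.31-fold in PNs (log2 fold change -2.41, standard error 0.33, adjusted p = 0.000156) and was called lower in slow-growing (-2.34, adjusted p = 0.00954) and fast-growing PNs (-2.55, adjusted p = 0.000878). *Cdh16*, known as the kidney cadherin, was at 0.943, 0.367 and 0.730 CPM in controls, at 2.05, 1.43, 1.74, 2.38 and 2.22 in slow-growing PNs, and at 0.878 to 2.34 in fast-growing PNs, with 1 fast-growing PN below control 3 (log2 fold change in PNs 1.34, standard error 0.38, adjusted p = 0.0174).

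*Cdh13* (chr8:118283733-119324921, plus strand), a cadherin anchored to the membrane by lipid and known from vessels, was at 27.8, 27.5 and 27.2 CPM in controls, at 9.49, 11.1, 8.78, 4.67 and 40.2 in slow-growing PNs, and at 4.68 to 15 with a median of 6.79 in fast-growing PNs. The controls lay close together, all fast-growing PNs were below them, and slow-growing PN 1206 was above them. *Cdh13* was called lower in fast-growing PNs (log2 fold change -1.80, standard error 0.33, adjusted p = 0.003) and not over all PNs (-1.31, adjusted p = 0.0692). Endothelial markers summed to 253, 375 and 418 CPM in controls, 93.1 to 235 in fast-growing PNs and 395 in slow-growing PN 1206, and 6 of 10 were called lower in fast-growing PNs. The part of vessel content in these values was not tested.

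**Figure D2:**
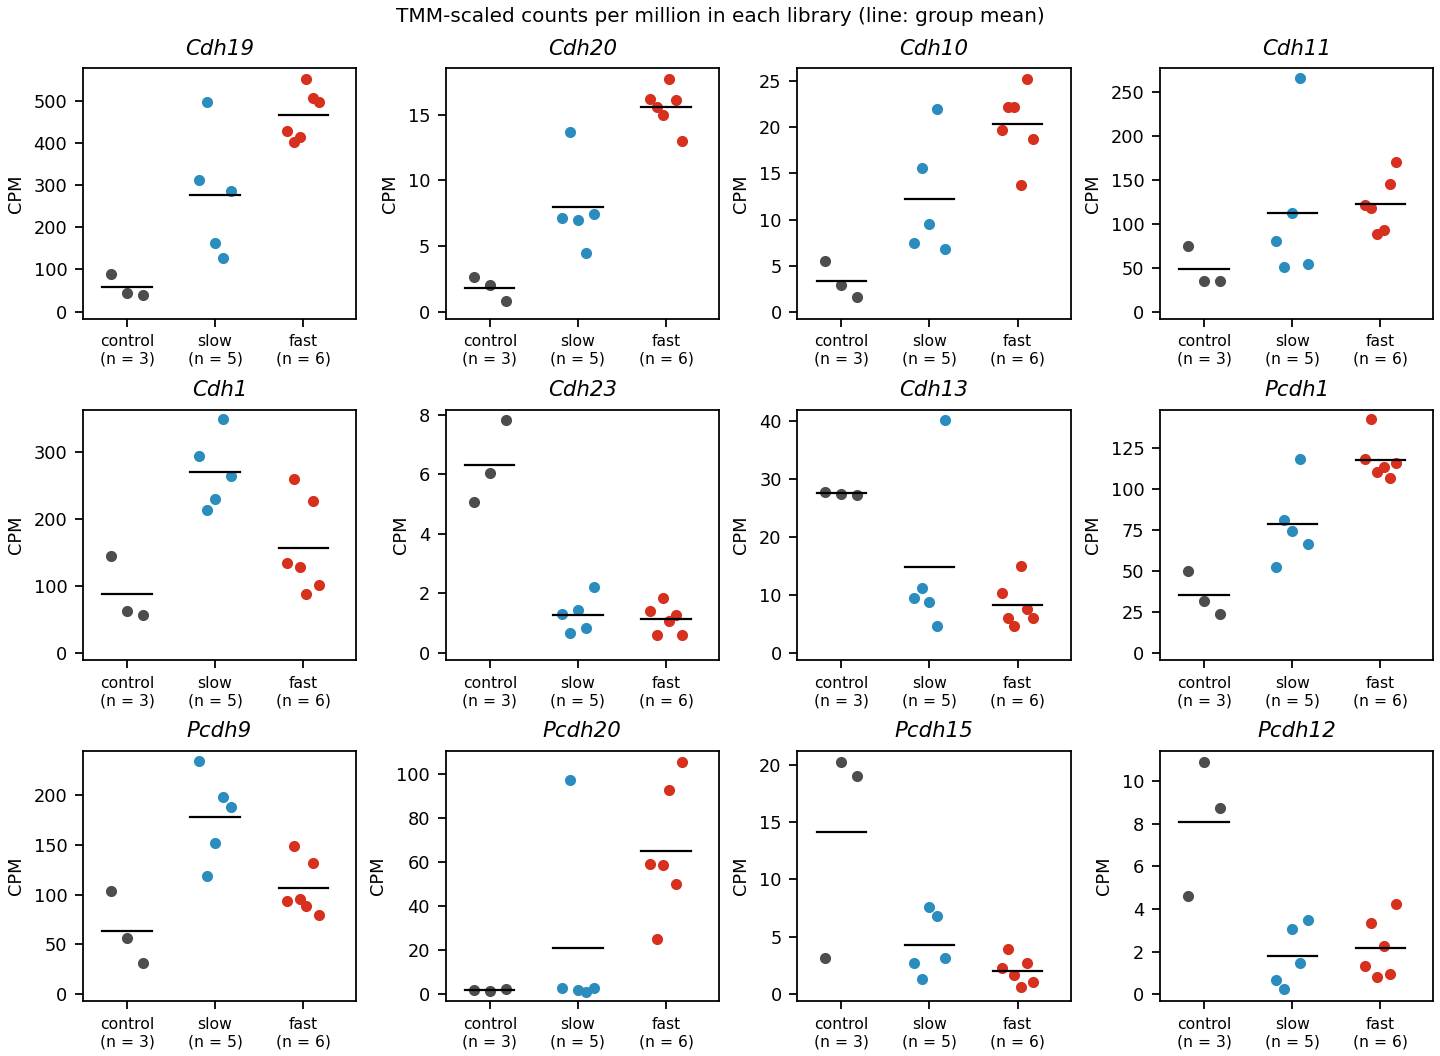
Expression of 12 cadherins and protocadherins in each library, as TMM-scaled CPM, by group, with a line at each group mean. *Cdh19*, *Cdh20* and *Cdh10* are above the controls in every PN, *Cdh23* and *Pcdh12* are below them in every PN, and *Pcdh20* is high in all 6 fast-growing PNs and 1 slow-growing PN.

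Non-clustered protocadherins of the delta group, which act in cell adhesion and sorting, gave 2 calls among 9 tested members, both higher and both in delta-1, a share near the 26.3% of all genes called. *Pcdh1* (chr18:38185914-38212053, minus strand) was at 49.7, 31.8 and 24.0 CPM in controls, at 52.1, 81.0, 74.5, 118 and 66.3 in slow-growing PNs, and at 107 to 142 with a median of 114 in fast-growing PNs. No PN overlapped the controls. Its log2 fold change was 1.49 in PNs (standard error 0.30, adjusted p = 0.00269) and 1.68 in fast-growing PNs (standard error 0.21, adjusted p = 0.000357), and it was not called in slow-growing PNs (1.10, adjusted p = 0.0564).

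*Pcdh9* (chr14:93013410-93890679, minus strand) had its highest levels in slow-growing PNs. It was at 104, 56.6 and 31.4 CPM in controls, at 235, 119, 152, 199 and 188 in slow-growing PNs, and at 79.6 to 149 with a median of 95.0 in fast-growing PNs. All slow-growing PNs were above all controls, while 4 of 6 fast-growing PNs were below control 3. *Pcdh9* was called over all PNs (log2 fold change 1.11, standard error 0.39, adjusted p = 0.0477) and in slow-growing PNs (1.43, standard error 0.39, adjusted p = 0.0495), and neither call was kept without control 4 or control 5. The call over all PNs was also lost without any 1 of the 5 slow-growing PNs or fast-growing PN 1071 or 1214, and the call in slow-growing PNs without slow-growing PN 1079, 1202, 1203 or 1206. Its difference between growth groups, -0.74, was not called (standard error 0.21, adjusted p = 0.0805). The delta-1 member *Pcdh7* stayed between 63.0 and 146 CPM in all libraries without a call in PNs (0.25, adjusted p = 0.288), and the delta-2 members with the highest mean CPM, *Pcdh19* and *Pcdh17*, were not called in PNs either (adjusted p = 0.399 and 0.955). Of the remaining delta members, *Pcdh18* was called in fast-growing PNs (0.69, adjusted p = 0.035), and *Pcdh8*, *Pcdh10* and *Pcdh11x* in no comparison.

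*Pcdh20* (chr14:88464743-88471396, minus strand), a non-clustered protocadherin, was at 1.97, 1.19 and 2.19 CPM in controls, at 2.73, 97.3, 1.63, 1.01 and 2.6 in slow-growing PNs, and at 24.8 to 105 with a median of 58.9 in fast-growing PNs. All fast-growing PNs lay above all controls, and among slow-growing PNs 1198A lay in the range of the fast-growing PNs and the other 4 in or near that of the controls. The increase in fast-growing PNs was 34.9-fold (log2 fold change 5.13, standard error 0.56, adjusted p = 0.000174). Over all PNs it was 4.64 (standard error 1.57, adjusted p = 0.0419), and that call was lost when any control, any fast-growing PN or slow-growing PN 1198A was left out. The growth groups did not differ by a called amount (1.62, standard error 1.09, adjusted p = 0.435). Summed skeletal muscle markers were lowest in slow-growing PN 1198A, at 33.1 CPM, and nearly as low in slow-growing PN 1206, at 62.1 CPM, where *Pcdh20* was near the controls. Fibroblast markers summed to 5588 CPM in slow-growing PN 1198A, within the 5491 to 10363 CPM of the fast-growing PNs. In the other 4 slow-growing PNs they summed to 1267 to 4109 CPM. Macrophage and leukocyte markers likewise summed to 1151 CPM in slow-growing PN 1198A, 592 to 1882 in fast-growing PNs and 123 to 464 in the other 4 slow-growing PNs. In controls they summed to 292 to 1710 CPM. The part of muscle, fibroblast or leukocyte content in the *Pcdh20* levels was not tested.

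*Pcdh15* and *Pcdh12* were lower in PNs. *Pcdh15* (chr10:73099342-74649737, plus strand) was at 3.17, 20.2 and 19.1 CPM in controls, at 2.73, 1.35, 7.56, 6.78 and 3.18 in slow-growing PNs, and at 0.605 to 3.96 with a median of 1.98 in fast-growing PNs, so that control 3 lay among the PNs (log2 fold change in PNs -2.23, standard error 0.59, adjusted p = 0.0125). *Pcdh12* (chr18:38267089-38284402, minus strand), a protocadherin of endothelium, was at 4.63, 10.9 and 8.76 CPM in controls, 0.225 to 3.47 in slow-growing and 0.804 to 4.24 in fast-growing PNs. All PNs were below all controls (log2 fold change -2.04, standard error 0.56, adjusted p = 0.0161), and its calls in PNs and in fast-growing PNs were lost without control 4 or 5. For both genes controls 4 and 5 were higher than control 3. Skeletal muscle markers summed to 4024, 9341 and 16122 CPM in controls 3, 4 and 5 and endothelial markers to 253, 375 and 418 CPM, with 3 of 10 endothelial markers called lower in PNs. In PNs the sums were 33.1 to 3904 and 78.3 to 395 CPM. Slow-growing PN 1206, with endothelial markers at 395 CPM, held 3.47 CPM of *Pcdh12*, the most of its group and less than any control. The part of either tissue in these differences was not tested.

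The clustered protocadherins were next compared cluster by cluster. In the beta cluster all 21 tested members had log2 fold changes above 0 in PNs and 19 were called, with a median log2 fold change of 1.49 and a range of 0.84 to 3.64. Beta members summed to 88.3, 57.4 and 55.1 CPM in controls (66.9 ± 18.6, SD, n = 3), to 116, 122, 107, 147 and 110 in slow-growing PNs (121 ± 16.0, SD, n = 5), and to 181 to 258 with a mean of 212 ± 26.0 (SD, n = 6) in fast-growing PNs. The 3 groups did not overlap in this sum. Single-exon beta genes gave 16 calls of 17 tested, whereas other single-exon coding genes were called higher in 9.15% of 306, and other genes of chromosome 18 in 13.1% of 397. Without control 4 or 5, 7 and 6 beta members were called in PNs, against 14.9% and 12.5% of all genes. All 21 were above 0 whichever library was left out. With the muscle and fat scores as covariates the beta median was 0.40, with 19 of 21 above 0.

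**Figure D3:**
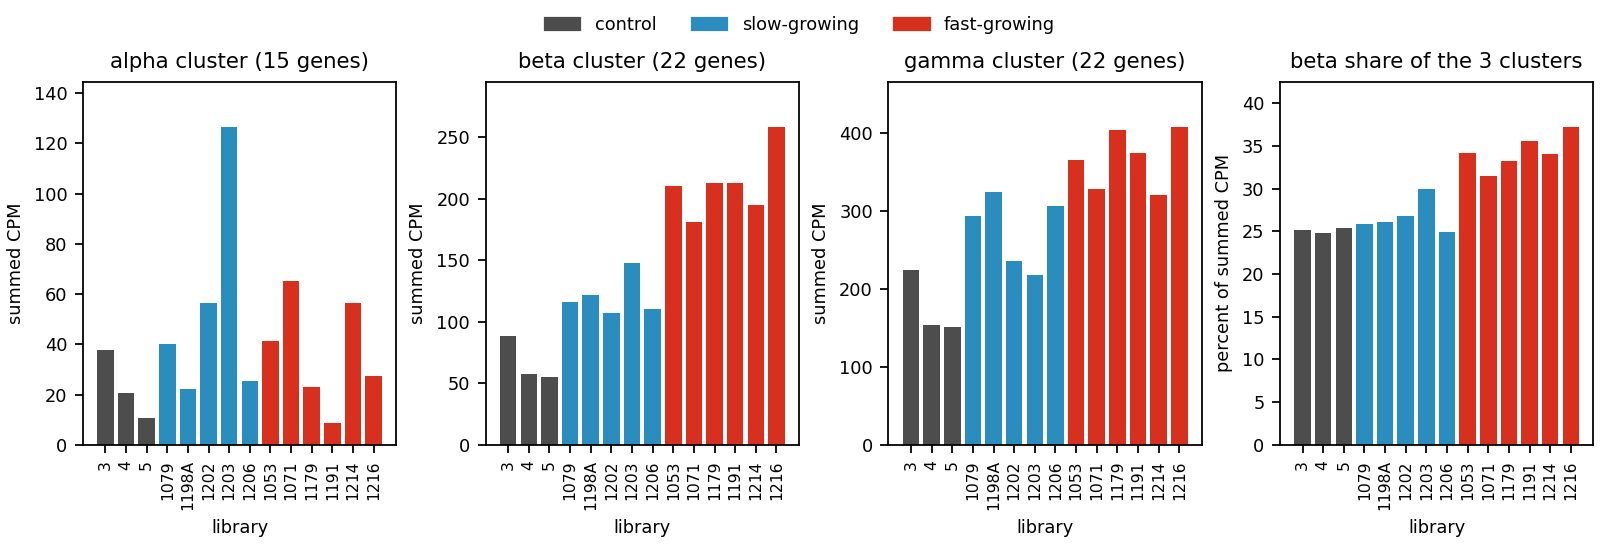
Summed CPM of the alpha, beta and gamma clusters in each library and the share of the beta cluster in the sum of all 3, in percent. The beta sum is at 55.1 to 88.3 CPM in controls, 107 to 147 in slow-growing and 181 to 258 in fast-growing PNs, while the alpha sums of the 3 groups overlap.

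The largest beta change was that of *Pcdhb6*, with counts of 3, 1 and 3 in controls, 0.867 to 2.18 CPM in slow-growing and 1.16 to 8.67 CPM in fast-growing PNs (log2 fold change in PNs 3.64, standard error 0.89, adjusted p = 0.00865). Control counts of this size leave the fold imprecise, though no PN overlapped the controls. *Pcdhb3* was at 1.20, 1.10 and 0.417 CPM in controls, at 2.66, 5.56, 2.76, 5.22 and 3.18 in slow-growing PNs, and at 3.93 to 8.67 in fast-growing PNs, with every PN above every control. It rose by 2.39 on the log2 scale in PNs (standard error 0.45, adjusted p = 0.00151), and together with *Pcdhb6* it was 1 of the 2 beta members called in slow-growing PNs (2.01, adjusted p = 0.0303). The beta member with the most counts was *Pcdhb16*, at 20.7, 14.5 and 10.9 CPM in controls, 16.0 to 24.4 in slow-growing and 29.8 to 53.1 in fast-growing PNs (log2 fold change in PNs 1.09, standard error 0.36, adjusted p = 0.0372). Beta transcripts had little sequence in common with other genes, with 0 to 12.0% of their 50-base windows found elsewhere in the annotated exons and a median of 4.46%.

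In the gamma cluster all 22 members had log2 fold changes above 0 in PNs and 15 were called, with a median log2 fold change of 0.87 and a range of 0.37 to 1.33. *Pcdhga11* was at 7.89, 5.86 and 3.54 CPM in controls, at 17.5, 16.5, 10.9, 12.3 and 14.4 in slow-growing PNs, and at 13.3 to 16.5 in fast-growing PNs, and no PN overlapped the controls (log2 fold change 1.33, standard error 0.22, adjusted p = 0.000538). *Pcdhga7* was at 12.0, 5.04 and 5.21 CPM in controls, at 19.7, 20.6, 12.3, 19.1 and 20.4 in slow-growing PNs, and at 17.5 to 22.3 in fast-growing PNs (1.32, standard error 0.25, adjusted p = 0.00167). No PN overlapped the controls in *Pcdhga7* either. Both were also called in slow-growing PNs (1.25, adjusted p = 0.0332, for *Pcdhga11*; adjusted p = 0.0477 for *Pcdhga7*). The 15 calls fell among the 19 A-type and B-type members, and none of the 5 C-type isoforms of the alpha and gamma clusters was called in PNs by edgeR, with 3 at an unadjusted p under 0.05. In fast-growing PNs 16 of the 19 A-type and B-type members and all 3 gamma C-type members were called. Without control 4 or 5, 3 and 2 of 22 gamma members were called, against 14.9% and 12.5% of all genes. These counts did not exceed the background. With the muscle and fat scores as covariates the gamma median was 0.36.

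*Pcdhgc3*, the gamma member with the most counts and a C-type isoform, was at 38.7, 27.6 and 31.4 CPM in controls, at 25.3, 49.6, 39.2, 47.7 and 39.3 in slow-growing PNs, and at 58.5 to 77.8 in fast-growing PNs. Slow-growing PNs overlapped the controls and fast-growing PNs lay above both groups. It was called in fast-growing PNs (log2 fold change 0.99, standard error 0.16, adjusted p = 0.00148) and not over all PNs (0.74, adjusted p = 0.068). Gamma transcripts had 20.4% to 65.9% of their 50-base windows in other annotated genes, mostly the shared constant exons, so that counts of single gamma members depend on how shared reads were assigned.

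The alpha cluster gave no call in PNs against controls. Of 12 tested members, 11 were above 0 in PNs with a median log2 fold change of 0.80, and none had an adjusted p under 0.05 by edgeR or DESeq2, nor an unadjusted p under 0.05 by edgeR. That median was 0.30 by limma-voom, 0.53 without control 5 and 0.52 without slow-growing PN 1203. It was 1.16 without control 3 and 1.09 with the muscle and fat scores as covariates. Without control 3, all 13 tested alpha members were above 0 and 2 had an unadjusted p under 0.05 by edgeR. Alpha members summed to 37.6, 20.7 and 10.8 CPM in controls, to 40.1, 22.4, 56.4, 127 and 25.3 in slow-growing PNs, and to 8.77 to 65.0 in fast-growing PNs. The groups overlapped. Slow-growing PN 1203 had the highest alpha sum and the highest sum of neuron markers (127 and 14670 CPM), and fast-growing PN 1191 the lowest of both (8.77 and 51.9 CPM). In fast-growing PN 1191 the beta sum was 212 CPM, against a mean of 212 CPM in its group. *Pcdhac2* made up most of the alpha counts, with 22, 12.2 and 6.36 CPM in controls and 8.09 to 77.7 CPM in PNs (log2 fold change 1.04, adjusted p = 0.215). Annotated alpha transcripts had 48.2% to 97.5% of their 50-base windows in other annotated genes. Counts of single alpha members therefore also depend on how shared reads were assigned.

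**Figure D4:**
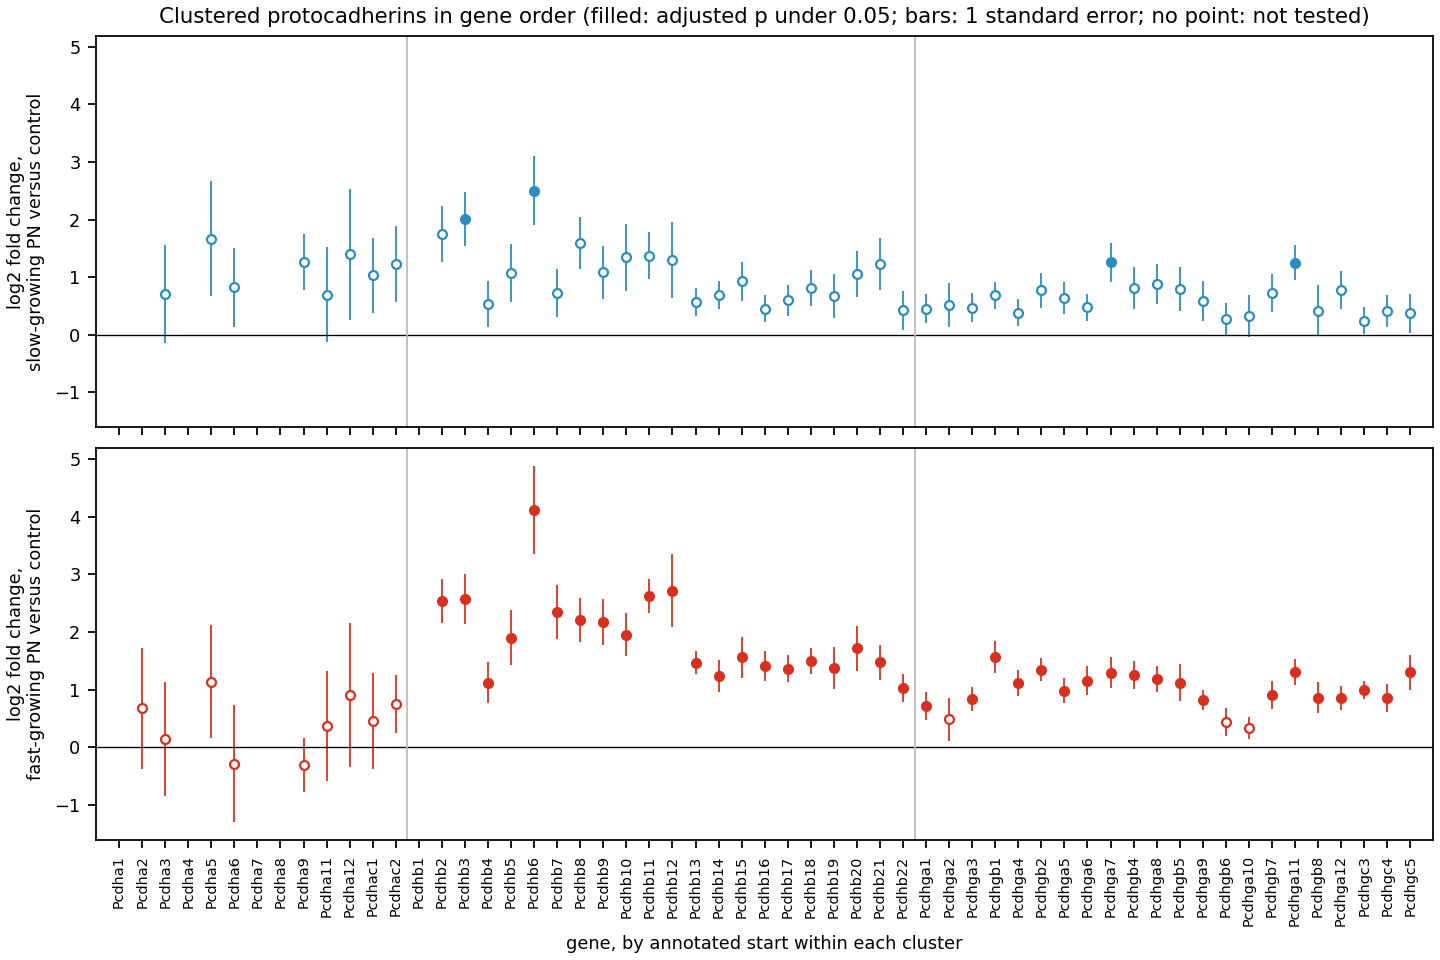
Log2 fold change against controls of the clustered protocadherins in gene order along chromosome 18, for slow-growing PNs (upper) and fast-growing PNs (lower), with bars of 1 standard error and filled points for called members. In fast-growing PNs all 21 tested beta members are called, with a median of 1.72, while in slow-growing PNs 2 beta members are called, with a median of 1.05.

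The growth groups were then each set against the same 3 controls. In slow-growing PNs 8 of 83 tested members were called higher and 1 lower, against 4.12% and 7.13% of all genes, and 32 had an unadjusted p under 0.05 against 30.3%. The members called higher were *Cdh19*, *Cdh20*, *Cdh1*, *Pcdh9*, *Pcdhb3*, *Pcdhb6*, *Pcdhga7* and *Pcdhga11*, and the one called lower was *Cdh23*. All 9 lost the call without control 5, and all but *Cdh23* without control 4. This count depended on single libraries. It was 0 of 86 without control 5 (17 at an unadjusted p under 0.05) where 3.74% of all genes were called, 1 of 86 without control 4 against 4.27%, and 19 of 85 without control 3 against 15.3%. It was 3 without slow-growing PN 1079, 4 without 1206 and 5 without 1198A. Of all genes, 957 of 15466, 1232 of 15661 and 1488 of 15547 were called in those fits. In fast-growing PNs 47 of 83 tested members were called higher and 4 lower, against 14.8% and 16.7% of all genes, and 53 had an unadjusted p under 0.05 against 41.8%. Of 83 members, 50 did not overlap between fast-growing PNs and controls, against 32.7% of all genes. The 4 called lower were *Cdh23*, *Cdh13*, *Pcdh15* and *Pcdh12*. In that comparison all 21 beta members were called and lay above every control, and 19 of 22 gamma members were called. By edgeR or DESeq2, 0 of 9 alpha members were called, none of them with an unadjusted p under 0.05 by edgeR. Of 8 fibroblast markers, 6 were called higher and 1 lower in fast-growing PNs, with a median log2 fold change of 1.41. Their part in the differences of the members was not tested. With each library left out in turn, 19 to 21 beta members and 14 to 19 gamma members were called, and the count of all called members was 52 of 86 without control 3, 41 of 88 without control 4 and 41 of 87 without control 5, against 31.9%, 22% and 20.4% of all genes. With muscle and fat scores as covariates edgeR called 0 members and 0 genes of the whole table in either comparison. An unadjusted p under 0.05 was then found for 3 members in the slow-growing and 4 in the fast-growing comparison, against 7.59% and 8.39% of all genes. In fast-growing PNs the beta median was then 1.12 and the gamma median 0.36, and in slow-growing PNs the beta median was 0.48. The gamma median in slow-growing PNs was 0.56, against 0.55 without the covariates.

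The beta cluster changed unevenly along its length in fast-growing PNs. *Pcdhb2*, *Pcdhb3* and *Pcdhb5* to *Pcdhb12* had log2 fold changes of 1.90 to 4.12, and *Pcdhb13* to *Pcdhb22* had 1.03 to 1.72, with *Pcdhb4* at 1.12. These stretches were described after their values were seen, and the difference between them was not tested. Control means were 0.221 (*Pcdhb6*) to 1.58 CPM (*Pcdhb9*) in the first stretch and 1.88 (*Pcdhb21*) to 15.4 CPM (*Pcdhb16*) in the second. In *Pcdhb11* the controls were at 1.03, 0.825 and 1.04 CPM. *Pcdhb1* was near 0 in all groups and was not tested.

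The last comparison asked which members separated fast-growing from slow-growing PNs. Of 86 tested members 5 were called, all higher in fast-growing PNs and all in the beta cluster, against 0.802% of all genes called higher. *Pcdhb11* was at 2.20, 3.46, 1.33, 2.84 and 3.28 CPM in slow-growing and 4.90 to 8.40 in fast-growing PNs (log2 fold change 1.26, adjusted p = 0.0484). *Pcdhb12* was at 2.28, 4.06, 2.66, 3.75 and 2.02 CPM in slow-growing and 4.98 to 12.5 in fast-growing PNs (1.42, adjusted p = 0.0449). In both genes the fast-growing PNs all lay above the slow-growing PNs, as did 2.13% of all genes, while 3.04% did not overlap in either direction. *Pcdhb13* (0.91, adjusted p = 0.0403), *Pcdhb16* (0.95, adjusted p = 0.0449) and *Pcdhb17* (0.77, adjusted p = 0.0449) were separated in the same way, with *Pcdhb16* at 16.0 to 24.4 against 29.8 to 53.1 CPM. All 21 beta members were above 0, with a median of 0.71. The gamma members had a median of 0.34, with 0 calls by edgeR, 8 at an unadjusted p under 0.05 and 6 calls by DESeq2. By edgeR, 3 gamma members were called with all 14 libraries in the fit. Without slow-growing PN 1198A, fast-growing PN 1071 or slow-growing PN 1203, 4, 2 and 1 were called.

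The 5 calls lay close to the threshold. Leaving out slow-growing PN 1079, 1202 or 1206 or fast-growing PN 1053, 1179, 1191 or 1216 left 0 members called. In those fits 2 to 8 genes of the whole table were called, and 30 to 36 members had an unadjusted p under 0.05. DESeq2 called 24 members and 1570 of 15465 genes, and limma-voom 0 members and 34 genes. With muscle and fat scores as covariates edgeR called 0 members and 0 genes, and 20 of 86 members had an unadjusted p under 0.05 against 11.2% of all genes. The beta share of the summed clusters was 24.9% to 29.96% in slow-growing PNs and 31.5% to 37.2% in fast-growing PNs, without overlap, and 24.8% to 25.4% in controls. No alpha member was called by edgeR, with 0 of 11 above 0, a median of -0.57 and 1 at an unadjusted p under 0.05. Without slow-growing PN 1203 the alpha median was -0.024 and 5 of 11 were above 0, and it was -0.32 without fast-growing PN 1191 and -0.998 without 1214, -0.92 by limma-voom and -0.89 with the muscle and fat scores as covariates. The one member at an unadjusted p under 0.05 was *Pcdha9*, chosen after its values were seen (-1.58, adjusted p = 0.0506), with all fast-growing below all slow-growing PNs. In other fits 1 alpha member was called lower, by DESeq2 and by edgeR with all 14 libraries, with the length and GC trend removed, without slow-growing PN 1198A or without fast-growing PN 1071. Neuron markers summed to 2956 to 14670 CPM in slow-growing and 51.9 to 8616 CPM in fast-growing PNs and fibroblast markers to 1267 to 5588 and 5491 to 10363 CPM, and their part in these differences was not tested.

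Of 18 tested catenins and other junction partners, 4 were called higher in PNs and none lower, close to the 26.3% of all genes called. *Ctnnb1*, which encodes beta-catenin, was higher in PNs (log2 fold change 0.46, standard error 0.13, adjusted p = 0.0206), *Ctnnd1*, which encodes the p120 catenin that keeps cadherins at the membrane, likewise (0.79, standard error 0.21, adjusted p = 0.0122), as was the nectin gene *Pvrl3* (1.19, standard error 0.31, adjusted p = 0.011). The alpha-catenin gene *Ctnna1* (0.43, standard error 0.19, adjusted p = 0.11) and the plakoglobin gene *Jup* (0.17, standard error 0.26, adjusted p = 0.665) were not called. Among 14 tested genes of other cadherin families, *Celsr2*, a seven-pass cadherin of planar polarity, was higher (0.79, adjusted p = 0.048) and the desmosomal cadherin gene *Dsg2* was lower (-3.60, standard error 0.66, adjusted p = 0.00127).

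Of 15 genes for CTCF, cohesin and other chromatin regulators of the clustered protocadherins, 2 were called higher and 1 lower in PNs, against 12.9% and 13.4% of all genes, so the list did not stand out from the background. The cohesin subunit gene *Smc3* was higher (log2 fold change 0.60, standard error 0.11, adjusted p = 0.00139) and the cohesin regulator gene *Pds5b* also (0.40, adjusted p = 0.02), and *Hells*, which encodes a remodeler needed for DNA methylation, was lower (-0.73, adjusted p = 0.0466). Of 14 genes for signaling partners, chiefly the WAVE complex that protocadherin tails bind, 5 were called higher, among them *Abi1* (0.52, adjusted p = 0.00549), *Abi2* (0.75, adjusted p = 0.0098) and *Cyfip1* (0.73, adjusted p = 0.0125). Of 10 tested genes for cadherin-processing proteases and transcriptional repressors of cadherins, the repressor genes *Zeb1* (0.95, standard error 0.22, adjusted p = 0.00537), *Snai2* (1.10, standard error 0.31, adjusted p = 0.017) and *Zeb2* (1.14, standard error 0.39, adjusted p = 0.0419) were called higher. In fast-growing PNs, 6 of the 14 signaling partner genes and 3 of the 10 protease and repressor genes were called higher, against 14.8% of all genes, and in slow-growing PNs 1 of 14 and 0 of 10, against 4.12%. Of the genes named here outside the members, *Abi1*, *Dsg2*, *Smc3* and *Zeb1* were called in PNs whichever library was left out, and the others called in PNs lost the call without at least 1 control.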

How the data were processed

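Total RNA came from frozen PNs and control DRGs with nerves, the Ovation RNA-Seq System v2 was used for amplification, and the submitters' processing notes list CASAVA 1.4, FastQC 0.11.0, TopHat2 2.0.9, featureCounts 1.5.2, edgeR 3.16.5 and the mm10 build. The authors deposited raw counts per gene for 24062 genes, as whole numbers without normalization, and these were analysed. Their strand setting and their assignment of reads shared by several genes are not given in the sources used here. A table of log2 values that the authors normalized by edgeR's TMM method was not used.

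Groups were taken from the sample labels, and 0 columns lacked a sample. No labels give sex or batch per library. Control libraries are named DRG with a replicate number and PN libraries by a number, and these names do not show whether each came from 1 mouse. Counts were analysed in R 4.3.3 with edgeR 4.0.16 (filterByExpr, TMM, two-sided quasi-likelihood test, Benjamini-Hochberg adjustment over all genes tested). Standard errors are of the log2 fold change, and CPM values are TMM-scaled. Alternatives were RLE and upper-quartile factors, no filter, DESeq2 1.42.0, limma-voom (limma 3.58.1), all 14 libraries in 1 fit, marker scores as covariates, a length and GC correction, and leaving out each library. On simulated counts for PN versus control, 25% of genes changed 2-fold and 60% of those changed 4-fold were recovered. These shares were 4% and 38% for slow-growing PNs versus control, 6% and 68% for fast-growing PNs versus control, and 34% and 79% for fast-growing versus slow-growing PNs. In each simulation only 200 genes were changed, whereas 4283 genes were called in PNs in the data. The adjusted p depends on that share, so the recovered shares do not give the power in these data.

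Named members were up to 30 called ones by p in PNs and the 2 of each class with the highest mean CPM; other genes were the 3 with the lowest p per list with 4 catenins. Members named outside this rule and the stretches of beta genes were chosen after their values were seen. Members and lists were chosen with earlier results of these data known. Coordinates and exons are from GENCODE M21 (mm10), which held 92 of the 94 members, 60 of them on chromosome 18; upstream sequences were found for 22 members in RefSeq (GRCm38.p6). Python 3.11.15, pandas 2.3.3 and matplotlib 3.10.9 were used.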

Additional observations from a re-analysis of the deposited data

Results flagged for a closer look

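In 9 of 86 groups of slow-growing or fast-growing PNs, 1 library lay farther from the others than Dixon's 95% limit, which chance passes in about 1 of 20 groups. *Pcdh20* was at 97.3 CPM in slow-growing PN 1198A and at 1.01 to 2.73 CPM in the other 4. *Cdh13* was at 40.2 CPM in slow-growing PN 1206 and at 4.67 to 11.1 in the others, and *Cdh11* at 265 CPM in slow-growing PN 1203 and at 50.8 to 113 in the others. Slow-growing PN 1206 was also apart in the beta members *Pcdhb14*, high at 13.2 CPM, and *Pcdhb16*, low at 16.0 CPM. Among gamma members, *Pcdhga7* was low in slow-growing PN 1202 at 12.3 CPM and *Pcdhgb1* in slow-growing PN 1203 at 10.3 CPM. Among fast-growing PNs, *Pcdh1* was high in 1071 at 142 CPM and *Pcdh7* in 1191 at 146 CPM.

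Between the growth groups, 5 beta members differed by edgeR's test, with log2 fold changes of 1.26 for *Pcdhb11*, 1.42 for *Pcdhb12*, 0.91 for *Pcdhb13*, 0.95 for *Pcdhb16* and 0.77 for *Pcdhb17*, each with all 6 fast-growing PNs above all 5 slow-growing PNs.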

How the results depend on the processing

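In PNs against controls, 44 members were called, and 34 to 51 under the other scalings, filter, tools and the length and GC correction. With muscle and fat scores as covariates 0 were called in each of the 4 comparisons, and 13 to 45 were called when 1 library was left out. Of all genes, 4283 were called in PNs against controls and 3588 to 5170 under those other settings. With 1 library left out 2061 to 4779 genes were called, and 598 with the covariates. In slow-growing PNs 9 were called, against 24 by DESeq2, 25 with all 14 libraries in the fit and 0 to 19 with 1 library left out. Of all genes, 1769 of 15714 were called there, against 3529 of 15714 by DESeq2 and 3280 of 16283 with all 14 libraries. With 1 library left out it was 599 to 2454 genes. In fast-growing PNs 51 were called and 41 to 52 with 1 library left out, against 5043 and 3342 to 5247 of all genes. Between the growth groups 5 were called, against 1 with upper-quartile factors, 24 by DESeq2, 0 by limma-voom, 9 with all 14 libraries and 0 to 17 with 1 library left out. The counts over all genes were 196, 72, 1570, 34, 423 and 2 to 1194 in the same order. The cause was not tested. Of 109 calls of single genes, DESeq2 gave the same direction and call for 109, RLE factors for 106 and limma-voom for 94, and leaving out control 4 or control 5 for 60 and 57 of 105. Under the covariates 5 single values changed sign: *Pcdhb14* (-0.44), *Pcdhga5* (-0.085) and *Cdh13* (0.12) in fast-growing PNs, and *Pcdh20* (-0.48) and *Pcdhb16* (-0.11) in PNs. With 3 controls, an uncalled member is not shown to be the same. Changes of 2-fold were mostly missed on simulated counts, where only 200 genes were changed. No paired analysis was possible because the groups share no replicate numbers.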
